A study of Ovis aries with 6 samples.

Results

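Collagen chain genes were followed in sheep adipose stromal vascular cells that overexpressed the homeobox transcription factor MEOX2. The members were all rows of the gene table with a symbol made of COL, a number, A and a number, and 43 of 26425 rows met this rule. A further row, COL4A3BP, begins the same way but encodes a ceramide transfer protein, and it was left out. The members fell into 11 fibrillar chains, 9 network-forming chains, 9 FACIT chains (fibril-associated collagens with interrupted triple helices) and 6 beaded filament chains. The remaining 8 were 4 transmembrane chains, 2 multiplexins, the anchoring fibril chain COL7A1 and COL26A1.

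Collagens are the main structural proteins of the extracellular matrix, and their chains wind around each other as trimers. Fibrillar collagens pack into fibrils, and FACITs sit on the fibril surface. Among network collagens, type IV forms the sheets of basement membranes. Type VI collagen forms beaded microfilaments between cells. In fat, fibroblast-like precursors lay down fibrillar collagen, and mature adipocytes are wrapped in a basement membrane rich in type IV and surrounded by type VI collagen.

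The tested cells carried forced expression of MEOX2 (3 samples), and the control cells were labelled NC (3 samples), an abbreviation the labels do not spell out. All were sheep cells of the stromal vascular fraction, the mixed cells left when mature fat cells are removed from adipose tissue, and the labels give their cell type as adipocyte. The column names of both groups carry the prefix pHBLV. The labels do not give age, breed, day of culture or whether the samples came from separate cultures or animals, so p-values reflect just the spread among these libraries, and that spread may be technical.

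Levels are FPKM, reads scaled to gene length and library size, as deposited by the authors. Reads recovered from these values totalled 11772772 to 12230863 per library. MEOX2 itself was at 152.7, 107.7 and 138 FPKM in the overexpressing samples, against 10.8, 10.1 and 9.03 FPKM in NC (log2 change 3.60, SE 0.13, limma adjusted p = 1.15e-05), and reads per gene do not separate introduced from endogenous transcripts. The summed level of 6 adipocyte markers was 126 to 148 FPKM in MEOX2 samples and 297 to 352 FPKM in NC samples, and 5 of the 6 fell with MEOX2. The summed level of the 5 smooth muscle and pericyte markers that could be matched was 575 to 613 FPKM in MEOX2 samples, against 477 to 490 FPKM in NC, and 2 of these 5 rose. The 2 were CNN1 and CSPG4, whereas most of the sum was TAGLN, which was not called (limma adjusted p = 0.0819). The 7 stromal markers summed to 4094 to 4275 FPKM in MEOX2 samples and 3387 to 4125 FPKM in NC samples, mostly decorin (DCN), and none of the 6 that passed the filter was called. The endothelial markers CDH5, VWF, KDR and TEK summed to at most 0.436 FPKM in any library. The part of the adipocyte, stromal and smooth muscle markers in the collagen results was not tested. Because these are bulk samples, fewer cells of a type and less RNA per cell cannot be told apart.

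On the second principal component of all genes (22.2% of variance), NC sample 3 lay at 21.2 and the other libraries between -14.2 and 8.12. It was the lowest NC library in 16 of the 21 collagen genes tested, against 38.6% of all 13121 genes tested. NC sample 2 was the highest NC library in 16 of these 21 genes, against 36.3% of all genes. The MEOX2 libraries were uneven too. MEOX2 sample 1 was the highest MEOX2 library in 12 of the 21 genes, against 35.9% of all genes. MEOX2 sample 3 was the lowest in 10, against 30.8% of all genes. For several genes described below the value without NC sample 3, and for some that without MEOX2 sample 1, is given beside that from all libraries.

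Collagen RNA was among the most abundant in these cells. Collagen chains took 14.1%, 14.3% and 13.4% of all reads in MEOX2 samples and 13.4%, 13.9% and 12.5% in NC samples. COL1A1 had the highest level of any gene in the table, COL1A2 the third highest and COL3A1 the fourth. Summed over all chains, the level was 29442 ± 1645 FPKM in MEOX2 samples and 27557 ± 1791 FPKM in NC samples (SD, n = 3 each), and the groups overlapped. Fibrillar chains made up 88.1 ± 0.653% of that sum in MEOX2 samples and 87.7 ± 0.346% in NC samples, followed by beaded filament chains with 8.80 ± 0.488% and 9.04 ± 0.292%.

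Of the 43 members, 21 averaged 1 FPKM or more across the libraries and were tested, and 22 did not reach this filter. Genes were tested by fitting log2(FPKM + 1) with limma, adjusting p over all genes tested. COL12A1 rose with MEOX2, no member fell, and 20 were not called. Among all genes tested, 2.67% were called, 1.51% higher and 1.16% lower, so 1 of 21 lies near the background. Unadjusted p was under 0.05 for 7 of the 21 members, against 13.4% of all genes. For 7 members the MEOX2 and NC libraries were fully separated, with MEOX2 above in 6 and below in 1, against 18.9% of all genes, 9.60% above and 9.33% below. The median log2 change was 0.07 over the 21 members and -0.00273 over all genes.

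**Figure D1:**
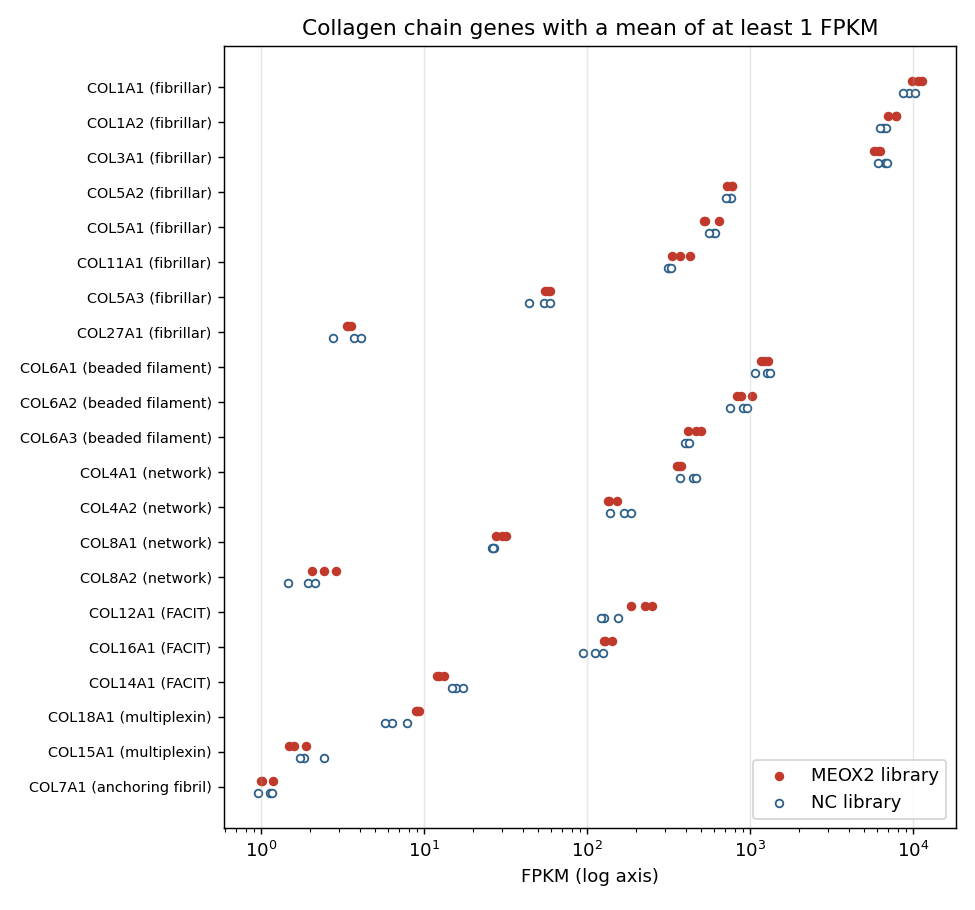
FPKM (log axis) of the 21 tested collagen chain genes, grouped by class; each filled point is a MEOX2 library and each open point an NC library. Levels run from about 1 FPKM (COL7A1) to 11333 FPKM (COL1A1 in MEOX2 sample 1), and the groups do not overlap for 7 genes: COL12A1, COL14A1, COL16A1, COL18A1, COL1A2, COL8A1 and COL11A1.

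The FACIT chains had log2 changes of both signs and held the 1 called member. COL12A1 encodes the chain of type XII collagen, a long FACIT found on fibrils of tissues under mechanical load. It lies on chromosome 8 from 1763844 to 1881188 of the minus strand, in the coordinates of the deposited table, whose build is not named. Its level was 249.7, 186 and 227 FPKM in MEOX2 samples, against 126, 120.3 and 154 FPKM in NC samples. All MEOX2 libraries lay above all NC libraries, with MEOX2 sample 2 and NC sample 3 closest to each other. COL12A1 was 1.65-fold higher with MEOX2, a log2 change of 0.72 (SE 0.13, limma adjusted p = 0.0241), on at least 16231 reads per library. The call was lost without MEOX2 sample 1 (limma adjusted p = 0.0740), MEOX2 sample 3 (0.0954), NC sample 1 (0.103) or NC sample 2 (0.0880), and it held without MEOX2 sample 2 (0.0202) or NC sample 3 (0.0212). The log2 change stayed between 0.62 and 0.84 in the fits that left out 1 library.

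COL14A1, the chain of the related FACIT type XIV, was lower with MEOX2 but was not called by limma. Its level was 12.4, 11.99 and 13.1 FPKM in MEOX2 samples and 15.6, 14.8 and 17.3 FPKM in NC samples. The groups did not overlap, and the log2 change was -0.32 (SE 0.09, limma adjusted p = 0.133). By limma voom on the recovered reads, COL14A1 was called lower (adjusted p = 0.0260), in a test that called 4.37% of all genes and 3 of the 21 members.

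A second row that bears on type XIV lay outside the naming rule and was chosen after its values were seen. It has no symbol, the authors' annotation describes it as collagen alpha-1(XIV) chain, and it starts 12479 bases beyond the end of COL14A1 on the same strand (chromosome 9, 94189295 to 94218203). Its level was 5.65, 6.79 and 6.43 FPKM in MEOX2 samples, against 9.72, 9.85 and 8.65 FPKM in NC samples. Every MEOX2 library was below every NC library, and the row fell by 0.51 on the log2 scale (SE 0.10, limma adjusted p = 0.0404). Omitting any library other than NC sample 3 ended that call (limma adjusted p up to 0.164). Whether this row and COL14A1 belong to 1 transcript was not tested.

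The third measurable FACIT, COL16A1, the chain of type XVI collagen, was at 127.2, 141 and 127.5 FPKM in MEOX2 samples and 112, 124 and 94.5 FPKM in NC samples. The groups did not overlap, but NC sample 2 came close to the MEOX2 libraries. The log2 change was 0.26 (SE 0.10, limma adjusted p = 0.306; unadjusted p = 0.0341), and without NC sample 3 it was 0.16. Per length, COL12A1 was 20.2, 15.5 and 17.3 times COL14A1 in MEOX2 samples, against 8.12, 8.14 and 8.93 times in NC samples. This ratio sets a gene that rose over a gene with a negative log2 change. Relative to COL1A1, COL12A1 was 0.0175 to 0.0231 in MEOX2 samples and 0.0118 to 0.0178 in NC samples, with overlap. As a class, FACIT chains summed to 366 ± 25.4 FPKM in MEOX2 samples and 261 ± 5.96 FPKM in NC samples (SD, n = 3 each). COL12A1 alone averaged 221 FPKM of this sum in MEOX2 samples and 134 FPKM in NC samples, so it made up most of the difference. These sums and ratios were formed with the values known and are given without a test.

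**Figure D2:**
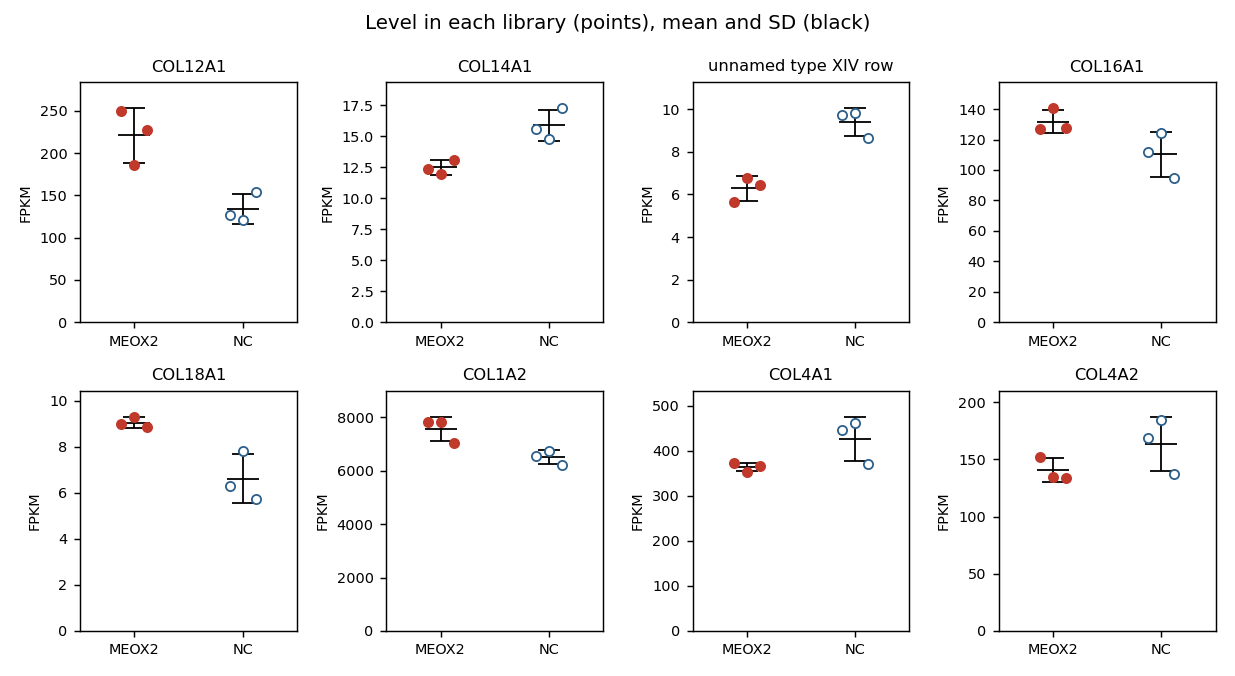
FPKM in each library for 7 collagen chain genes and the unnamed type XIV row; points are libraries, MEOX2 filled and NC open, and black marks give the mean and SD (n = 3 each). COL12A1, COL16A1, COL18A1 and COL1A2 have all MEOX2 libraries above NC, COL14A1 and the unnamed row have them below, and for COL4A1 and COL4A2 NC sample 3, the right-hand NC point, lies at the level of the MEOX2 libraries.

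None of the 8 fibrillar chains tested was called by limma or by limma voom. Of these, 5 had a positive and 3 a negative log2 change, and 2 had an unadjusted p under 0.05. COL1A1 and COL1A2 encode the chains of type I collagen, the principal fibril of skin, tendon and bone. COL1A1 was at 11333, 10630.5 and 9817 FPKM in MEOX2 samples and 9353, 10205 and 8673 FPKM in NC samples. COL1A2 was at 7834, 7826 and 7027 FPKM in MEOX2 samples and 6539, 6747 and 6229 FPKM in NC samples. The 2 groups overlapped for COL1A1 and did not for COL1A2. The log2 change was 0.17 for COL1A1 (SE 0.09, limma adjusted p = 0.504; 0.11 without NC sample 3) and 0.22 for COL1A2 (SE 0.08, limma adjusted p = 0.278; 0.19 without NC sample 3). The 95% interval of the fitted fold ran from 0.970 to 1.31 for COL1A1 and from 1.02 to 1.32 for COL1A2, neither adjusted for the number of genes.

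COL3A1 encodes the chain of type III collagen, which forms fine fibrils in extensible tissues and in the stroma of fat. It was at 6098, 6225 and 5764 FPKM in MEOX2 samples and 6702, 6905 and 6065 FPKM in NC samples, with NC sample 3 inside the MEOX2 range. The log2 change was -0.12 (SE 0.08, limma adjusted p = 0.611). Set against type I within each library, type III lay apart in the groups: COL3A1 was 0.538, 0.586 and 0.587 times COL1A1 in MEOX2 samples and 0.717, 0.677 and 0.699 times in NC samples. Relative to COL1A2 it was 0.778 to 0.820 in MEOX2 samples and 0.974 to 1.02 in NC samples. Such a separation was not particular to type III. The type V chain COL5A1 was 0.0486 to 0.0567 times COL1A1 in MEOX2 samples and 0.0593 to 0.0646 times in NC samples. No library of one group reached the range of the other, NC sample 3 included, although none of these genes was called alone. These ratios set genes with log2 changes of opposite sign against each other and are given without a test. For the chains of type I the groups overlapped, with COL1A1 at 1.40 ± 0.0442 times COL1A2 in MEOX2 samples and 1.45 ± 0.0613 times in NC samples (SD, n = 3 each).

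Types V and XI are minor fibrillar collagens that start and limit the growth of type I fibrils. COL5A2 was at 755 ± 27.4 FPKM in MEOX2 samples and 740 ± 25.8 FPKM in NC samples, with a fitted fold between 0.915 and 1.14 (95% interval). COL5A1 was at 563 ± 69.7 FPKM in MEOX2 samples and 586 ± 23.4 FPKM in NC samples, and COL5A3 at 57.1 ± 1.95 FPKM in MEOX2 samples and 52.2 ± 7.76 FPKM in NC samples (SD, n = 3 each). The groups overlapped for each of these type V chains. The log2 change of COL5A3 was 0.14 with all libraries and 0.01 without NC sample 3. COL11A1, a type XI chain best known from cartilage, was at 423, 368 and 329 FPKM in MEOX2 samples and 318, 312 and 324 FPKM in NC samples. Its groups did not overlap, MEOX2 sample 3 lay just above NC sample 3, and the log2 change was 0.22 (SE 0.09, limma adjusted p = 0.342; unadjusted p = 0.0427). Without MEOX2 sample 1 this change was 0.13. COL11A1 was 0.624 to 0.712 times COL5A1 in MEOX2 samples and 0.516 to 0.578 times in NC samples. The log2 changes of COL11A1 and COL5A1 had opposite signs, and the ratio is given without a test. COL27A1, another cartilage-associated fibrillar chain, was at 3.44 ± 0.109 FPKM in MEOX2 samples and 3.50 ± 0.693 FPKM in NC samples, with overlap, and its log2 change was -0.01 with all libraries and -0.14 without NC sample 3.

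**Figure D3:**
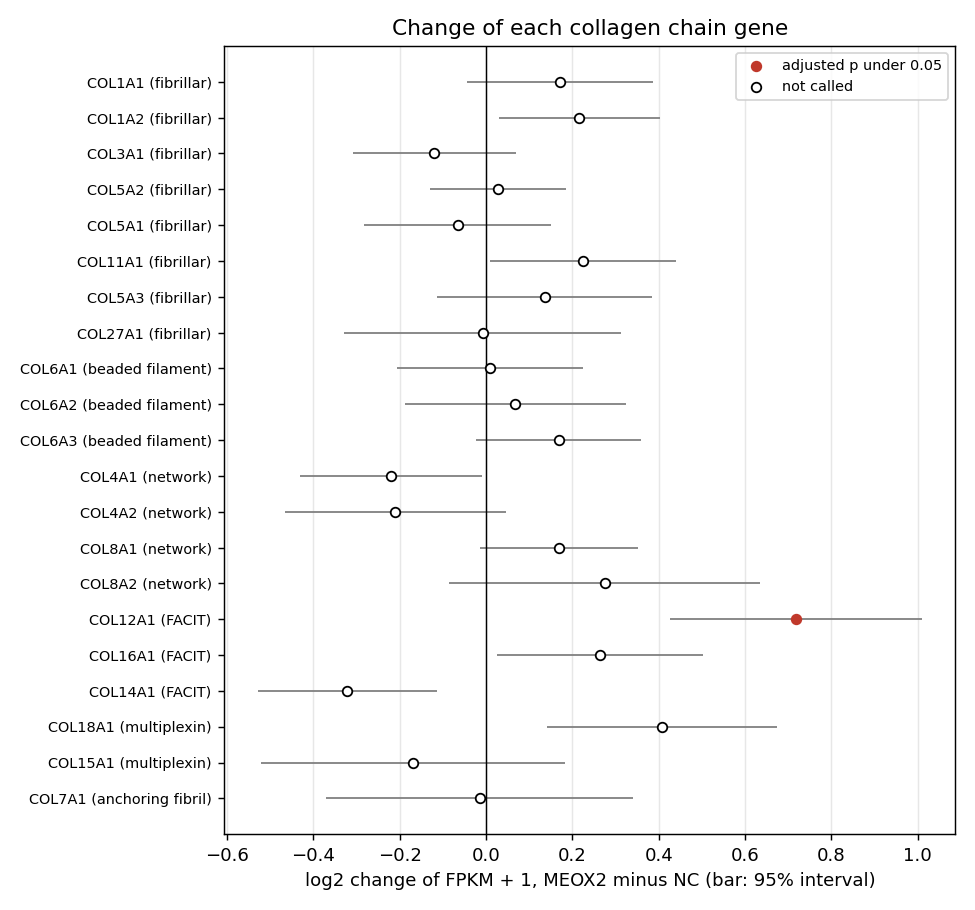
Log2 change of FPKM + 1 (MEOX2 minus NC) of the 21 tested collagen chain genes by class; points are limma estimates from 3 libraries a group, bars their 95% intervals, and the filled point passes an adjusted p of 0.05. COL12A1 at 0.72 passes, while the type I chains lie at 0.17 and 0.22 and the type IV chains at -0.22 and -0.21 without passing.

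None of the 4 network chains tested was called by limma or by limma voom, 1 had an unadjusted p under 0.05, and the type IV and type VIII chains had opposite signs. COL4A1 and COL4A2 encode the common chains of type IV collagen, the mesh of basement membranes, and lie head to head on chromosome 10 with 76256 bases between the annotated rows. COL4A1 was at 373, 354 and 366 FPKM in MEOX2 samples, against 447, 463 and 370.3 FPKM in NC samples. COL4A2 was at 152, 135 and 134 FPKM in MEOX2 samples, against 169, 184 and 138 FPKM in NC samples. NC samples 1 and 2 were above all MEOX2 libraries for both genes. NC sample 3 lay inside the MEOX2 range for both.

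The log2 change was -0.22 for COL4A1 (SE 0.09, limma adjusted p = 0.343; unadjusted p = 0.0429) and -0.21 for COL4A2 (SE 0.11, limma adjusted p = 0.485). Without NC sample 3 these changes were -0.32 (limma adjusted p = 0.0672) and -0.33 (0.120). Without NC sample 2 they were smaller, at -0.16 (limma adjusted p = 0.549) and -0.12 (0.699). COL4A1 was at 2.60 ± 0.140 times COL4A2 in MEOX2 samples and 2.62 ± 0.0927 times in NC samples (SD, n = 3 each), and every library lay between 2.45 and 2.73. Network chains summed to 537 ± 20.8 FPKM in MEOX2 samples and 619 ± 73.1 FPKM in NC samples (SD, n = 3 each), and the groups overlapped. As a share of all collagen FPKM, which is mostly fibrillar, they were at 1.81%, 1.75% and 1.93% in MEOX2 samples. In NC samples the share was 2.32%, 2.31% and 2.09%. In this share NC sample 3 was the closest to the MEOX2 libraries but still above them.

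COL8A1 and COL8A2 encode the short chains of type VIII collagen, known from the cornea and from vessel walls. COL8A1 was at 31.6, 27.6 and 30.03 FPKM in MEOX2 samples and 26.6, 25.8 and 26.5 FPKM in NC samples, without overlap (log2 change 0.17, SE 0.08, limma adjusted p = 0.421). COL8A2 was at 2.43 ± 0.414 FPKM in MEOX2 samples and 1.84 ± 0.339 FPKM in NC samples (SD, n = 3 each), on 32 to 62 reads per library, and its groups overlapped. Its log2 change was 0.27 with all libraries and 0.18 without NC sample 3. The other 5 network chains stayed below the filter. COL4A3, COL4A4, COL4A5 and COL4A6, the type IV chains of specialised basement membranes such as that of the kidney glomerulus, had at most 11 reads in any library. COL10A1, the chain of hypertrophic cartilage, had at most 7 reads. Its annotated span overlaps that of the gene NT5DC1 on the opposite strand, and whether the 2 genes share counted sequence was not tested.

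The beaded filament chains of type VI collagen were abundant, and none of the 3 tested was called by limma or by limma voom or had an unadjusted p under 0.05. COL6A1 was at 1284, 1207 and 1169 FPKM in MEOX2 samples and 1269, 1319 and 1064 FPKM in NC samples. COL6A2 was at 1021, 826 and 881 FPKM in MEOX2 samples and 901, 952 and 752 FPKM in NC samples. The groups overlapped for both genes. The 95% interval of the fitted fold was 0.866 to 1.17 for COL6A1 and 0.878 to 1.25 for COL6A2. Their log2 changes were 0.01 and 0.07 with all libraries and -0.09 and -0.03 without NC sample 3. Without MEOX2 sample 1 they were -0.03 and -0.02. COL6A3, the longest of these chains, was at 501, 413 and 464 FPKM in MEOX2 samples and 406, 399 and 418 FPKM in NC samples. MEOX2 sample 2 lay inside the NC range, and the log2 change of COL6A3 was 0.17 (SE 0.08, limma adjusted p = 0.448). Without MEOX2 sample 1 it was 0.10. Per length, COL6A3 was 0.376 ± 0.0298 times COL6A1 in MEOX2 samples and 0.338 ± 0.0477 times in NC samples (SD, n = 3 each). The overlap in this ratio came from NC sample 3 at 0.392, while NC samples 1 and 2 were at 0.320 and 0.303, against 0.342 to 0.397 in MEOX2 samples.

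Further beaded filament chains were scarce. COL28A1, a chain known from peripheral nerve, had 4, 11 and 5 reads in MEOX2 samples and 13, 14 and 16 reads in NC samples, and at this depth it was not tested. COL6A6 had 1 to 13 reads per library, and COL6A5 had 0 reads in all libraries.

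Of the 2 multiplexins, collagens of basement membrane zones, COL18A1 is the source of the fragment endostatin. COL18A1 was at 8.99, 9.31 and 8.85 FPKM in MEOX2 samples, against 6.31, 7.81 and 5.74 FPKM in NC samples. All MEOX2 libraries were above all NC libraries, and the NC libraries varied more. COL18A1 was 1.37-fold higher with MEOX2, a log2 change of 0.41 (SE 0.12) that limma did not call (adjusted p = 0.136) and that limma voom on the recovered reads did (adjusted p = 0.0140). Without NC sample 3 the log2 change was 0.32 (limma adjusted p = 0.223). COL15A1 was at 1.65 ± 0.217 FPKM in MEOX2 samples and 1.99 ± 0.374 FPKM in NC samples, and COL7A1 of the anchoring fibrils of skin at 1.06 ± 0.108 FPKM in MEOX2 samples and 1.08 ± 0.116 FPKM in NC samples (SD, n = 3 each). The groups overlapped for both.

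**Figure D4:**
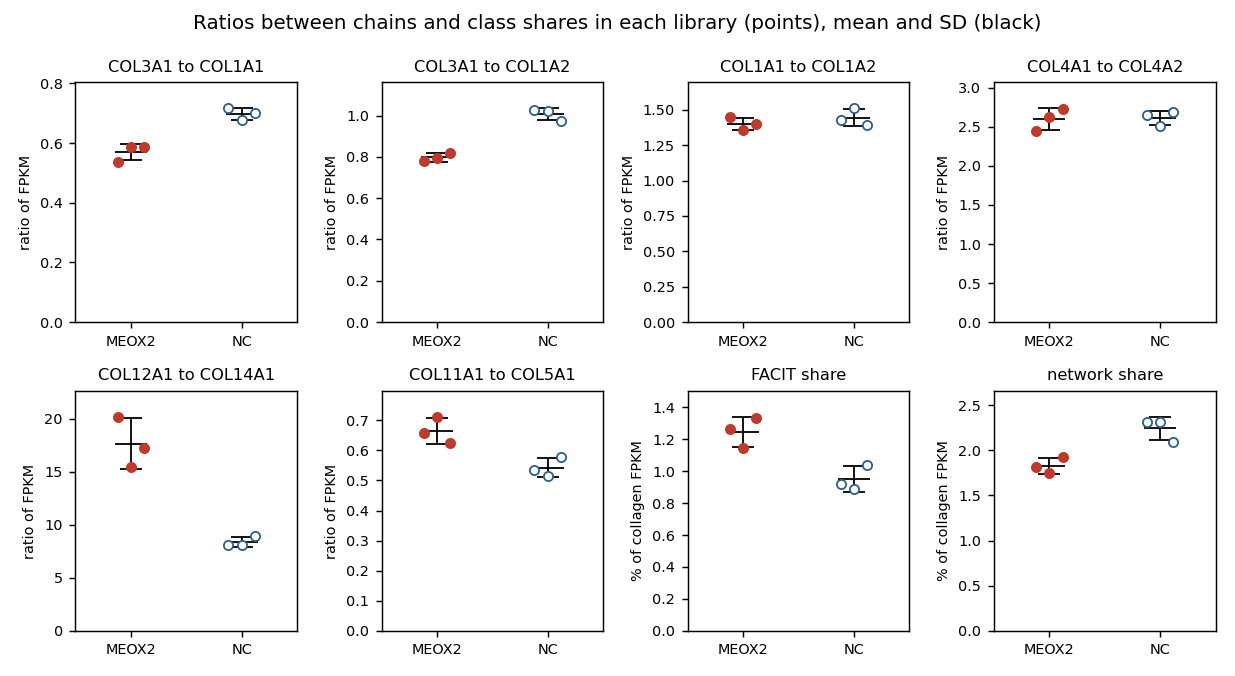
Ratios of FPKM between chains within each library and the FACIT and network shares of all collagen FPKM in percent; points are libraries, MEOX2 filled and NC open, and black marks give the mean and SD (n = 3 each). COL3A1 relative to COL1A1 is 0.538 to 0.587 in MEOX2 and 0.677 to 0.717 in NC, whereas COL1A1 to COL1A2 and COL4A1 to COL4A2 overlap between groups.

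The 22 members below the filter averaged at most 0.621 FPKM, and 5 of them (COL6A5, COL9A1, COL19A1, COL22A1 and COL25A1) had 0 reads in all libraries. A count of 0 allows up to 3 reads, which is 0.0291 to 0.178 FPKM per library depending on gene length, counting error only. Unlike COL11A1 and COL27A1, other chains known from cartilage were near 0: COL2A1, the main fibril of cartilage, had at most 2 reads in a library, COL9A3 at most 1 and COL11A2 at most 8. COL9A2 had 17 to 35 reads per library and the FACIT COL21A1 15 to 35. COL24A1, a fibrillar chain known from bone, had 30 to 51 reads per library. The transmembrane chains COL13A1, COL17A1 and COL23A1 had at most 15 reads, and COL26A1 at most 4. Just above the filter lay COL7A1 with a mean of 1.07 FPKM over the 6 samples, and just below it COL21A1 with 0.621 FPKM.

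Neighbouring members did not all share a level or a sign. COL3A1 and COL5A2 lie 18469 bases apart on chromosome 2 with no listed gene between them, and COL3A1 averaged 6293 FPKM over all libraries and COL5A2 747 FPKM, with log2 changes of -0.12 and 0.03. COL6A1 and COL6A2 lie on chromosome 1 with 130685 bases and 1 listed gene between them, and their changes were 0.01 and 0.07. COL18A1, at 0.41, lies 386146 bases before COL6A1 with 6 listed genes between. The deposited table gives each gene at most 1 family entry, under the heading tf_family. The entry was Collagen for 25 members, VWA (von Willebrand factor A) for 10 and VWC for 3, and 5 had none, COL6A3 among them. The VWA group contained COL12A1 and COL14A1, which had opposite signs, and COL6A1 and COL6A2, whose groups overlapped.

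Genes that process collagen were read from lists of 45 genes, of which 44 were matched and 36 passed the filter. By limma, LOXL4 rose, LEPREL1 fell and 34 were not called, so 2 of 36 stand against a background of 2.67%. Limma voom on recovered reads called 4 of the 36, against 4.37% of all genes, adding PCOLCE2 and ITGA11. The median log2 change of the 36 was -0.03. LOXL4, a member of the lysyl oxidase family that crosslinks collagen and elastin, was at 8.13, 6.87 and 6.38 FPKM in MEOX2 samples, against 3.15, 3.56 and 3.50 FPKM in NC samples. The groups were far apart, and LOXL4 was 2.09-fold higher (log2 change 0.88, SE 0.12, limma adjusted p = 0.00792), passing in all 6 fits with a library left out. The other 4 members of the family were not called: LOX averaged 378 ± 48.0 FPKM in MEOX2 libraries and 406 ± 63.4 FPKM in NC (SD, n = 3 each), and LOXL1, LOXL2 and LOXL3 had log2 changes of -0.16, 0.09 and 0.14.

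LEPREL1, an older symbol of P3H2, encodes a prolyl 3-hydroxylase known in mouse to modify type IV collagen. It was at 6.20, 6.08 and 5.05 FPKM in MEOX2 samples and 9.19, 10.3 and 9.58 FPKM in NC samples, with a wide gap between the groups. It fell by 0.66 on the log2 scale (SE 0.11, limma adjusted p = 0.0155), but was no longer called by limma when MEOX2 sample 3 (adjusted p = 0.0659), NC sample 1 (0.0588) or NC sample 2 (0.0612) was omitted. The other 13 tested genes of prolyl and lysyl modification were not called. Among them P4HB, a subunit of prolyl 4-hydroxylase, was at 1005 ± 37.6 FPKM in MEOX2 samples and 1025 ± 48.2 FPKM in NC samples (SD, n = 3 each).

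None of the 6 tested genes of propeptide cleavage was called by limma, and limma voom called 1. PCOLCE2, an enhancer of the protease that trims procollagen, came closest, at 184, 195 and 184 FPKM in MEOX2 samples and 252, 263 and 218 FPKM in NC samples. Its groups did not overlap, and its log2 change was -0.37 (SE 0.09, limma adjusted p = 0.0619). PCOLCE2 was called lower by limma voom (adjusted p = 0.00812) and by limma without NC sample 3 (log2 change -0.45, adjusted p = 0.0219). PCOLCE2 fits that left out another library are not given here. Its relative PCOLCE was at 1157 ± 75.9 FPKM in MEOX2 samples and 1170.2 ± 85.5 FPKM in NC samples (SD, n = 3 each). None of the 6 genes of chaperoning and export was called by limma or by limma voom, and 1 had an unadjusted p under 0.05; SERPINH1, the collagen chaperone HSP47, averaged 1492 ± 27.4 FPKM in MEOX2 libraries and 1595 ± 132 FPKM in NC libraries. CREB3L1, a transcription factor that activates collagen I genes in mouse bone, averaged 295 ± 16.9 FPKM in MEOX2 libraries and 251 ± 24.3 FPKM in NC libraries, without overlap (log2 change 0.24, limma adjusted p = 0.266).

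Among 5 tested collagen receptors and uptake genes, limma called none and limma voom called 1, and 1 had an unadjusted p under 0.05. ITGA11, the integrin chain through which fibroblasts bind fibrillar collagen, was at 6.81, 5.14 and 6.63 FPKM in MEOX2 samples and 2.64, 3.52 and 5.18 FPKM in NC samples. NC sample 3 overlapped MEOX2 sample 2, and the log2 change was 0.62 (SE 0.19, limma adjusted p = 0.175). Without NC sample 3 the groups were separate and the log2 change was 0.82 (limma adjusted p = 0.05004, not called), and limma voom called ITGA11 higher with all libraries (adjusted p = 0.0115). Fits of ITGA11 that left out another library are not given here. The collagen-binding kinase DDR2 was at 43.7 ± 3.11 FPKM in MEOX2 samples and 43.5 ± 5.99 FPKM in NC samples (SD, n = 3 each).

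**Figure D5:**
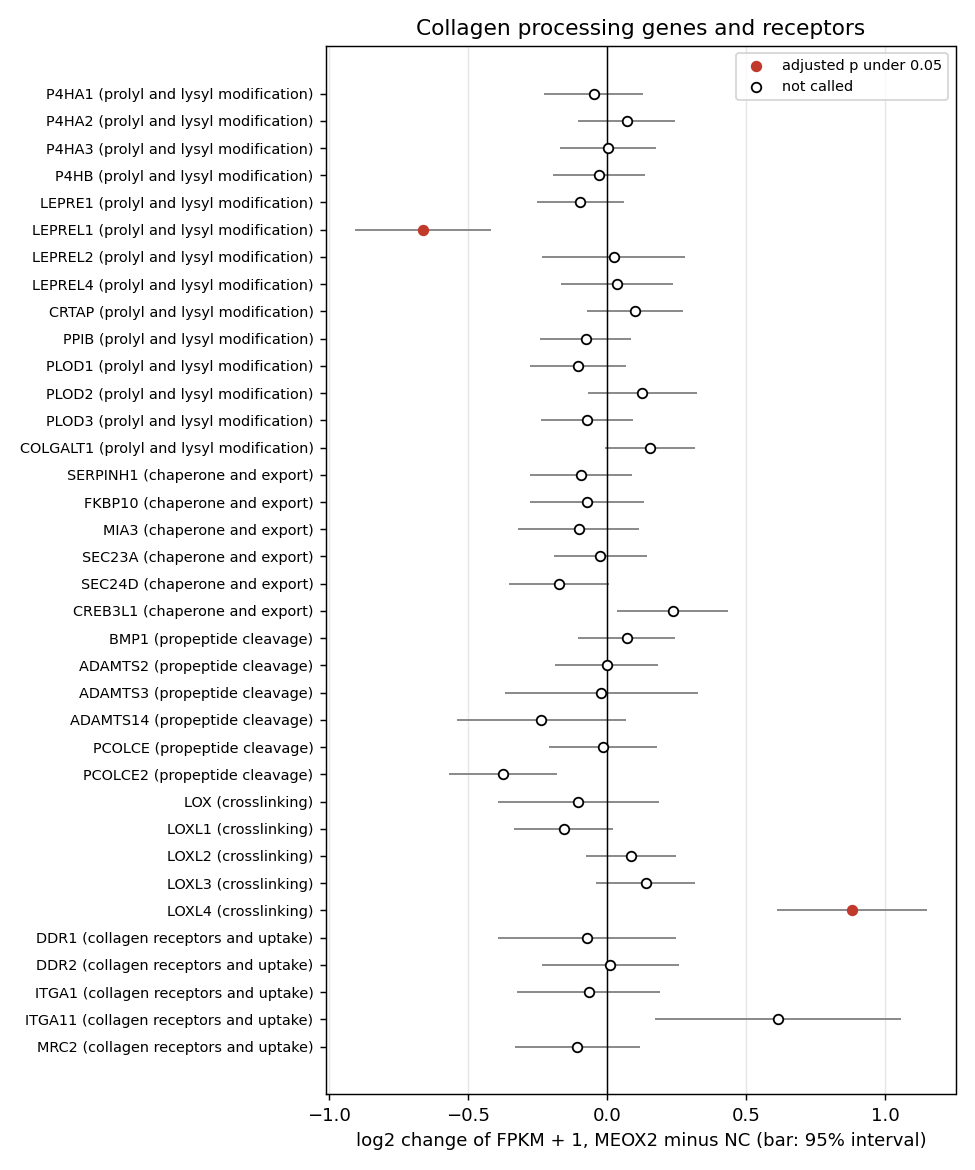
Log2 change of FPKM + 1 (MEOX2 minus NC) of 36 genes that modify, export, cleave, crosslink or bind collagen; points are limma estimates from 3 libraries a group, bars their 95% intervals, and filled points pass an adjusted p of 0.05. LOXL4 at 0.88 and LEPREL1 at -0.66 pass, and the remaining 34 do not.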

How the data were processed

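Per the labels' protocols, TRIzol was used for RNA extraction and an NEBNext Ultra kit for the libraries. The authors' deposited table holds FPKM values; the submitters' processing notes name HISAT2 2.0.5, DESeq2 1.20.0, featureCounts 1.5.0-p3, CASAVA 1.8 and fastp, without roles. The sources used here name no genome build, annotation release or strand setting. Reads per gene were recovered as FPKM times gene length over the worth of 1 read, and 100% of nonzero values came out whole within 0.001 of a read; the library size in the FPKM values was 0.967 to 1.02 times the read total. Gene lengths were multiples of 3 for 29 of 43 members, so many gene models may be coding length, which affects levels per length.

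Log2(FPKM + 1) of the 13121 genes that averaged 1 FPKM or more was fitted with limma 3.58.1 in R 4.3.3 (intensity trend, no covariates, Benjamini-Hochberg adjustment, threshold 0.05). On this scale changes of low genes are understated. Values are mean ± SD; other steps used pandas 2.3.3 and numpy 2.4.6 in Python 3.11.15, and matplotlib 3.10.9 for plots. Chi-square per gene between libraries of a group was 3.49 to 11.1, so none repeats another within sampling noise. Named members were those called, with an unadjusted p under 0.05 or among the 3 most abundant of a class, and the others were summarised. Members and lists were chosen with earlier results of these data known. Fits were repeated with pseudocounts of 0.1 and 0.5, with no filter or 0.5 FPKM, with other scalings and variance models, by limma voom on recovered reads, with a replicate block, and omitting each library.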

Additional observations from a re-analysis of the deposited data

How the results depend on the processing

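The count of 1 called collagen chain was 0 without a filter on low genes and 0 without the intensity trend, and 3 by limma voom on recovered reads, which added COL14A1 and COL18A1; it ranged from 0 to 1 with a library left out. COL12A1 lost its call without a filter (limma adjusted p = 0.0855) and without the trend (0.0536). Over all genes, 350 calls became 194 without a filter, over 18740 genes tested, and 574 by limma voom, and 117 to 276 with a library left out. COL6A1 was at 0.0084 and reversed to -0.0043 when scaled to total reads. With a library left out, uncalled changes crossed 0 for COL6A1 (-0.0853 to 0.0692), COL6A2 (-0.0323 to 0.138), COL5A2 (-0.0004 to 0.0592), COL27A1 (-0.137 to 0.0844) and COL7A1 (-0.0609 to 0.0156). LEPREL1 lost its call without a filter (limma adjusted p = 0.0529), and the unnamed type XIV row did too (0.0928). The causes were not tested.

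Deviations of same-numbered samples from their group means had correlations of -0.0747, 0.0204 and -0.00417, against -0.0854 to 0.0858 for other pairs. With 3 libraries a group, these values cannot settle whether the numbers pair the samples. With the replicate block, 242 genes and 1 collagen chain (COL12A1) were called, and the unnamed type XIV row lost its call (limma adjusted p = 0.0836). A count test with edgeR was not run, and the trimmed mean of M-values was computed directly on the recovered reads. Members under the filter rest on at most 51 reads per library; the filter of 0.5 FPKM tested 23 collagen chains and no filter 38, and none of the added chains was called.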
